A study of Mus musculus with 8 samples.

Results

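The family of miR-130 and miR-301 was read in mouse callus 7 days after osteotomy as the 4 miRs mmu-miR-130a-3p, mmu-miR-130b-3p, mmu-miR-301a-3p and mmu-miR-301b-3p, written below without the prefix for mouse. They were chosen by name, with the 3p arm, from the 1079 murine miRs on the array. The rule used no measured level. All animals were adult CD-1 mice, male and female, with an osteotomy of the femur held by the pin-clip technique. The Non-union group (4 mice, specimens P13 to P16) had a gap of 1.8 mm with the periosteum stripped on either side of it. The Union group (4 mice, P17 to P20) had a gap of 0.25 mm. The groups are named after the outcome known for these models, since no bridging is visible on X-rays at this early time. Total RNA of each callus was labelled with Cy3 and hybridized to 1 array, so each value stands for 1 mouse.

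A miR represses mRNAs that pair with its seed, the bases 2 to 8 counted from the 5′ end, and miRs of the same seed share most of their predicted targets. The family is best known for repressing Pparg, the nuclear receptor that drives the differentiation of fat cells. In endothelium, miR-130a has been described as promoting vessel growth by acting on the homeobox genes Gax and Hoxa5. Vessel growth and the choice of progenitors between bone and fat both belong to the setting of a healing fracture.

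The mature sequences are shown because the seed is what the members share and the rest of each molecule is what the probes must tell apart. They are from RefSeq (GRCm38.p6), 5′ to 3′, with the seed in capitals, and miR-721 is added as another miR on the array with this seed.
miR-130a-3p: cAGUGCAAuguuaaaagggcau
miR-130b-3p: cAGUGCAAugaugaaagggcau
miR-301a-3p: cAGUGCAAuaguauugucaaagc
miR-721: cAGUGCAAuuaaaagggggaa
RefSeq gave a mature sequence for 3 of the 4 members, and miR-301b-3p is named only. MiR-130a-3p and miR-130b-3p were identical at 20 of 22 bases and differed by U11A and A13G, with the base of miR-130a-3p first and positions counted from the 5′ end. How well the probes tell these miRs apart was not tested. MiR-301a-3p, which is 23 bases long, shared its first 9 bases with miR-130a-3p, and miR-721, which is 21 bases long, also shared 9. Among the 840 array miRs with a RefSeq sequence, miR-721 was the 1 other miR with the seed AGUGCAA.

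The members come from 3 chromosomes. MiR-130a-3p lies at chr2:84741116-84741137 on the minus strand, in the miR gene Mir130a and within no other annotated gene. MiR-130b-3p lies at chr16:17124071-17124092 on the minus strand, within 2610318N02Rik. The hairpin of Mir301b, the source of miR-301b-3p, lies on the same strand, with 257 bases between the hairpins. MiR-301a-3p lies at chr11:87113054-87113076 on the plus strand, within Ska2. MiR-721 lies at chr5:136375777-136375797 on the minus strand, within Cux1.

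Some facts of the whole series bear on the values. The arrays detected between 324 and 391 murine miRs, 310 were detected on all 8 arrays and 657 on none. The paper's own set of miRs detected in all samples was larger, so the miRs tested here are not the same set. All arrays sat on 1 slide and each of its 2 rows held 1 group, so that row and group cannot be told apart. Over the 310 miRs, the Union arrays P19 and P20 were on average nearer to the Non-union arrays (Euclidean distances of 8.48 and 14.9) than to their own group (17.7 and 17.8), and none of the other 6 arrays was nearer to the other group. Results are therefore also given without P19 and P20. Among marker miRs of callus tissue, all 4 of cartilage and all 5 of mesenchyme were detected on every array. All were higher in the Non-union group at an unadjusted limma p under 0.05, with median log2 differences of 1.43 and 0.75. None had an adjusted p under 0.05, and by the methods' t-test 3 of the 4 and 2 of the 5 passed. By limma, 13.9% of the 310 tested miRs had an unadjusted p under 0.05. Of 6 skeletal muscle markers, 4 were detected on every array and none passed that threshold (median −0.30), with summed signals of 14855 to 62359 units in the Non-union group and 36945 to 95817 units in the Union group. Of 4 red blood cell markers, 3 were on the array and none of them passed it (median −0.30, summed signals of 2959.8 to 9468.7 against 3050.2 to 16676 units). The liver marker miR-122-5p, which should be absent from callus, was detected on 4 arrays, with 62.0 units on P13 and 20.1 units or less on P14, P15 and P17. The part of these markers in the results was not tested. In bulk tissue, fewer cells of a type and less of a miR per cell cannot be told apart.

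MiR-130a-3p, the member described in vessels, was detected on all arrays. The merged signal is the scanner software's background-corrected value over the 40 spots of a miR, in linear units. It was 1059, 985, 1020.0 and 864 units on P13 to P16 of the Non-union group. It was 829.5, 739.7, 967 and 1037 units on P17 to P20 of the Union group. The groups overlapped, and the range from the lowest to the highest array was 1.43-fold, or 1.70-fold after normalization. The software put the error of these signals at 7.13% to 7.18%.

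After log2 transformation and quantile normalization, miR-130a-3p lay at 9.92 ± 0.09 in the Non-union group and at 9.78 ± 0.39 in the Union group (mean ± SD, n = 4 each). The normalized values were 9.94, 9.80, 10.01 and 9.94 on P13 to P16 and 9.45, 9.45, 10.01 and 10.22 on P17 to P20. P17 and P18 were below all Non-union arrays, while P19 was level with the highest of them and P20 above it. Non-union minus Union was 0.14 (SE 0.23, 95% confidence interval −0.37 to 0.65), or 0.773- to 1.57-fold, with a limma p of 0.551 and an adjusted p of 0.695. The exact permutation test over the 70 arrangements of the arrays gave a two-sided p of 0.486. Over all 8 arrays its SD was 0.28, below the median of 0.48 over the 310 miRs, and 19% of those miRs had a smaller SD.

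MiR-130b-3p, the close relative from chromosome 16, was dimmer and varied more between mice. Its merged signal was 43.4, 38.4, 40.1 and 36.6 units on P13 to P16. It was 46.3, 32.2, 42.2 and 70.4 units on P17 to P20. The Union group held both the lowest array, P18, and the highest, P20, so that the Non-union values lay inside the Union range. The normalized level was 5.41 ± 0.21 in the Non-union group and 5.41 ± 0.61 in the Union group. The difference was 0.00061 (SE 0.31, interval −0.69 to 0.69), or 0.620- to 1.62-fold, with a limma p of 0.998, an adjusted p of 0.998 and an exact permutation p of 1.

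MiR-301a-3p comes from chromosome 11, apart from the locus of miR-130b-3p, and its values ran alongside those of miR-130b-3p. Its merged signal was 126, 119, 111 and 93.7 units on P13 to P16. It was 123, 90.3, 114 and 226 units on P17 to P20. P18 was again the lowest array and P20 the highest. The normalized level was 6.95 ± 0.12 in the Non-union group and 6.92 ± 0.63 in the Union group. The difference was 0.03 (SE 0.30, interval −0.66 to 0.72), or 0.634- to 1.65-fold, with a limma p of 0.921, an adjusted p of 0.949 and an exact permutation p of 0.943.

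MiR-301b-3p, the neighbour of miR-130b-3p, was close to the limit of the array. It was detected on 1 of 8 arrays, P20, with a merged signal of 2.86 units and a software error of 27.2% of that signal. On P13 to P19 the software entered 0.1 units, its value for a miR not detected. Of its 320 spots, 5 were well above background, 3 of them on P20 and 1 each on P16 and P18. No FC or test can be given for it. The partner arms miR-130a-5p, miR-130b-5p, miR-301a-5p and miR-301b-5p, cut from the same hairpins, were detected on no array, with 6 of 1280 spots well above background.

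**Figure D1:**
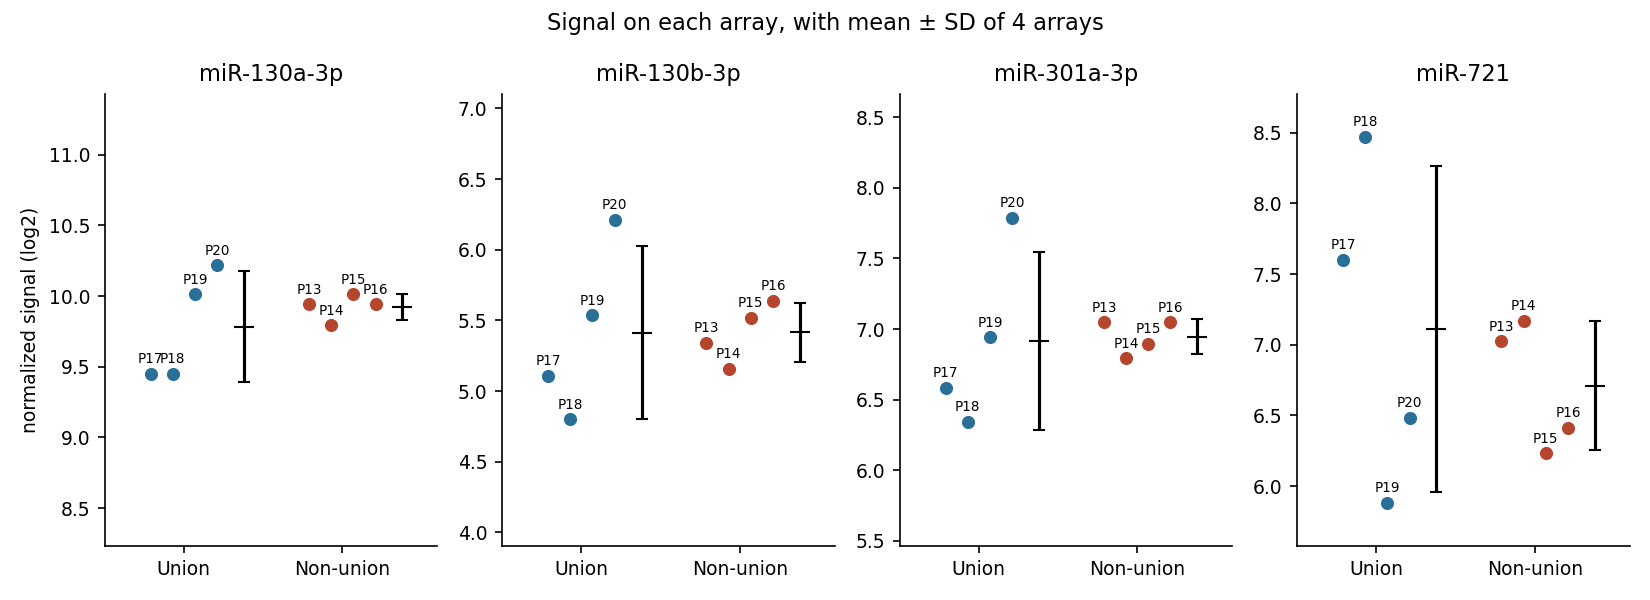
Normalized signal (log2) of the 3 members that every array detected, and of miR-721, 1 panel per miR and 1 point per mouse (Union blue, Non-union red), with bars for the mean ± SD of 4 arrays. All panels span the same width of the log2 scale, each centred on its own values. The groups overlap in all panels, with P20 highest for the 3 members and P18 highest for miR-721.

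None of the 3 members detected on all arrays passed the study's threshold for a significant difference, an unadjusted p under 0.05. Of all 310 tested miRs, 13.9% did so by limma, and 0.323% had an adjusted p under 0.05. The count among the members was also 0 of 3 by the methods' t-test, by which 33 of the 310 tested miRs passed. The members' groups overlapped in every case, while 3.87% of the tested miRs had groups that did not overlap. With all arrays, the 3 intervals excluded a 2-fold difference in either direction, while smaller differences lay within them. The tested miRs had a median absolute difference of 0.41 and a median SE of 0.30, so that the members' SEs of 0.23 to 0.31 were of the usual size.

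The members' differences were larger without P19 and P20, with P13 to P18 kept. The difference was then 0.48 (SE 0.16, interval 0.10 to 0.86, limma p of 0.0203, adjusted p of 0.0484) for miR-130a-3p. It was 0.48 (SE 0.21, interval −0.01 to 0.97, limma p of 0.0533, adjusted p of 0.0899) for miR-130b-3p. It was 0.49 (SE 0.18, interval 0.07 to 0.92, limma p of 0.0272, adjusted p of 0.0577) for miR-301a-3p. Both arrays had been left out for their nearness to the other group, which by construction widens differences of many miRs, and 58.0% of 312 tested miRs then passed an unadjusted p of 0.05, against 2 of the 3 members. The median difference of all tested miRs was then 0.34, against 0.15 with all arrays. With P20 alone left out the members' differences were 0.30, 0.27 and 0.33, in the order above, with limma p between 0.145 and 0.282. With P19 alone left out they were 0.20, 0.05 and 0.04.

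**Figure D2:**
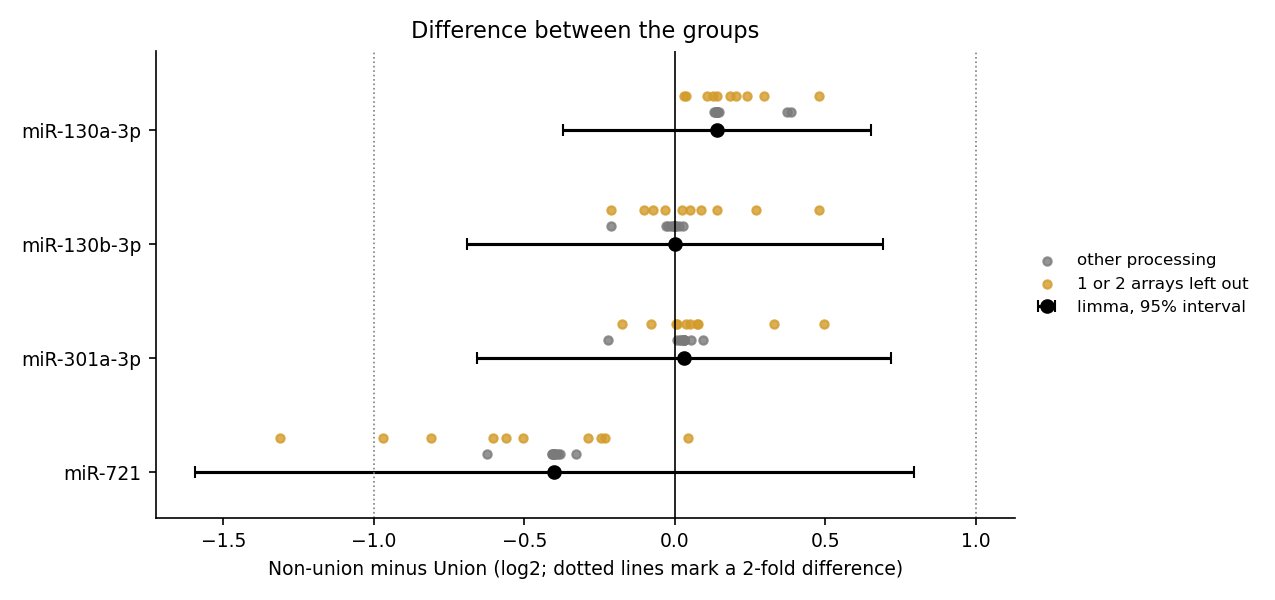
Non-union minus Union on the log2 scale (x axis) for each miR (y axis), with black points and bars for limma and its 95% confidence interval over all 8 arrays. Grey points are other processing and yellow points fits with 1 or 2 arrays left out; the members' intervals lie between the dotted lines of a 2-fold difference, and the yellow points farthest from 0 are those without P19 and P20.

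P20 carried the highest level of miR-301a-3p and miR-130b-3p. For miR-301a-3p its 226 units were 1.80-fold the next array, P13 with 126 units, and for miR-130b-3p its 70.4 units were 1.52-fold the next, P17 with 46.3 units. For miR-130a-3p its 1037 units were slightly under the 1059 units of P13. P20 was the highest array for all 3 members after normalization, as for 74 of the 310 tested miRs. Without P20 the highest and lowest arrays were 1.43-fold apart for miR-130a-3p, 1.44-fold for miR-130b-3p and 1.39-fold for miR-301a-3p in merged signal. Normalized log2 values without P20 still ran from 9.449 to 10.01, from 4.80 to 5.639 and from 6.345 to 7.048, in this order. The summed signal of the 4 leukocyte miRs (miR-223 and miR-142, both arms, with miR-223-5p detected nowhere) was 20398 units on P20, 5375.6 to 6375.8 units on the other Union arrays and 3534 to 4985.4 units on the Non-union arrays. The 3 detected ones were all highest on P20. Their differences were −1.13 for miR-223-3p (limma p of 0.0464, adjusted p of 0.346), −0.65 for miR-142-3p (limma p of 0.152) and −0.38 for miR-142-5p (limma p of 0.386). None passed by the methods' t-test, and 13.9% of all tested miRs passed an unadjusted limma p of 0.05. The part of the leukocyte miRs in the levels of the members was not tested.

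The probes of a member were compared over the arrays. Each of the 3 members was read by a pair of probes, and the probes of miR-130a-3p followed each other over the arrays to within 0.06 on the log2 scale, while that miR ranged over 0.51. For miR-301a-3p the largest gap was 0.11 against a range of 1.32. For miR-130b-3p it was 0.23, on P18, against a range of 1.16. Without normalization the group difference was −0.09 by 1 probe of miR-130b-3p and −0.28 by the other, and the probes of miR-130a-3p were highest on different arrays, P13 and P20. All 320 spots of miR-130a-3p and of miR-301a-3p, and 319 of 320 of miR-130b-3p, were well above background. Both probes of miR-130b-3p and both of miR-301a-3p were highest on P20, by 0.82 to 1.07 above the mean of the other Union arrays.

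**Figure D3:**
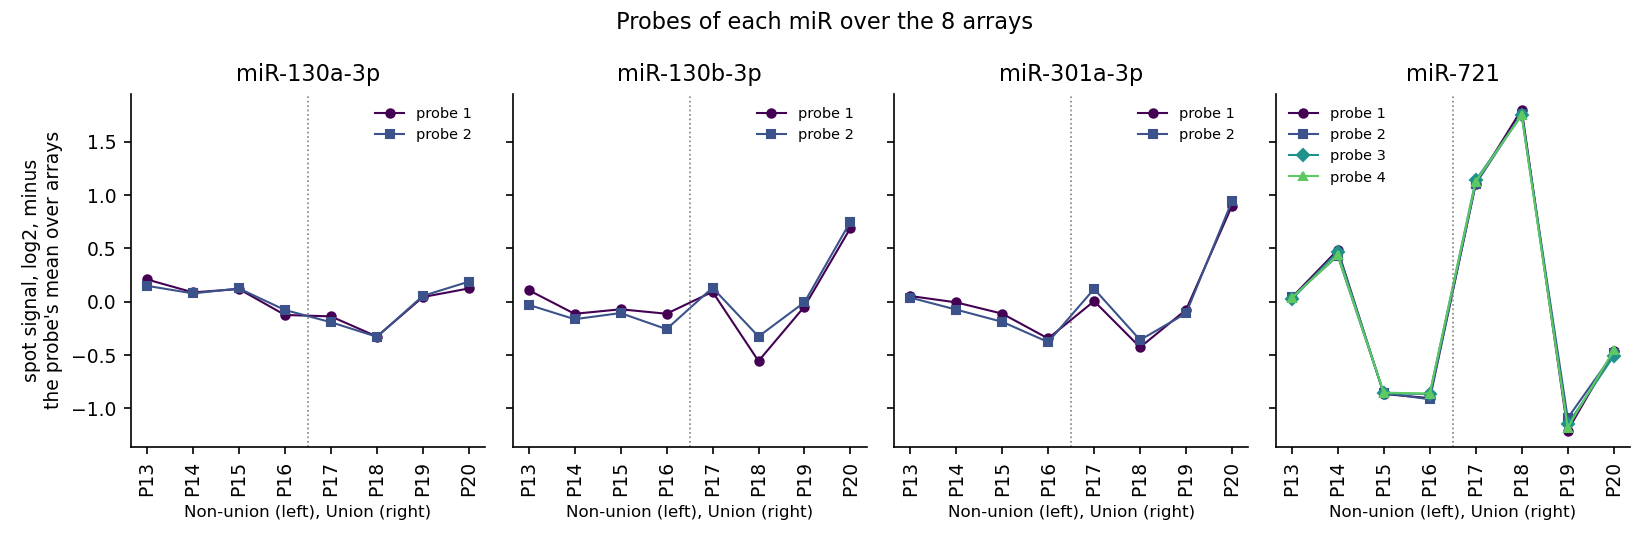
Mean spot signal of each probe on each array (log2, not normalized), minus that probe's mean over the 8 arrays, with Non-union arrays left and Union arrays right of the dotted line. The lines join the points of a probe and mark no order; probes of a miR run together, and the rise on P20 is seen in both probes of miR-130b-3p and of miR-301a-3p.

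Ratios of members within an array do not depend on how arrays are scaled, and 3 pairs were compared. The log2 ratio of miR-130b-3p to miR-301a-3p was −1.53, −1.63, −1.47 and −1.36 on P13 to P16 and −1.41, −1.49, −1.44 and −1.68 on P17 to P20. This ratio had an SD of 0.11 over the 8 arrays. The group means differed by 0.0088, with an exact permutation p of 0.886. After normalization, miR-130b-3p was the closest of 309 other miRs to miR-301a-3p, with an SD of 0.12 of their log2 difference, where the median over the others was 0.59. From miR-130b-3p, miR-301a-3p ranked 2 of 309.

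In merged signal, the ratio of miR-130a-3p to miR-130b-3p was higher on each Non-union array than on any Union array. It was 4.61, 4.68, 4.67 and 4.56 on P13 to P16 and 4.16, 4.52, 4.52 and 3.88 on P17 to P20. The lowest Non-union value, 4.56 on P16, was just above the highest Union value of 4.52, on P18. The software error of miR-130b-3p was 9.38% of its signal on P16 and 9.93% on P18. With 1 probe of miR-130b-3p (mean spot signals of 34.0 units on P16 and 25.0 on P18) the order of these arrays turned. With its other probe (62.6 and 59.7 units) it did not, each set against 1 probe of miR-130a-3p (974 and 846 units). The means were 4.63 ± 0.06 and 4.27 ± 0.31 and differed by 0.36. The exact permutation p of 0.0286 is the smallest that 4 against 4 arrays allow, and adjusted over the 3 pairs it was 0.0857. With P13, P14, P15 or P16 left out, the difference stayed at 0.34 to 0.38, and the exact permutation p was 0.114, 0.143, 0.143 and 0.0857. With any 1 Union array left out, the exact permutation p was 0.0286, the smallest then possible. The groups stayed apart in all of these fits, since leaving out an array cannot make separate groups overlap. These p values therefore do not tell which group the separation depends on. Of the 47895 ratios of any tested miRs, 5.47% had groups that did not overlap, and the median absolute difference between groups was 0.47. The ratio of miR-130a-3p to miR-301a-3p moved by a like amount, 0.37, from 2.77 ± 0.41 in the Union group to 3.13 ± 0.08 in the Non-union group. It was 3.08, 3.05, 3.20 and 3.21 on P13 to P16 and 2.75, 3.03, 3.08 and 2.20 on P17 to P20, so that these groups overlapped, with an exact permutation p of 0.0857 (0.129 adjusted over the pairs). Without P20 the differences of both ratios were 0.23 and 0.18, so that this array moved both by over 1.5 times.

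**Figure D4:**
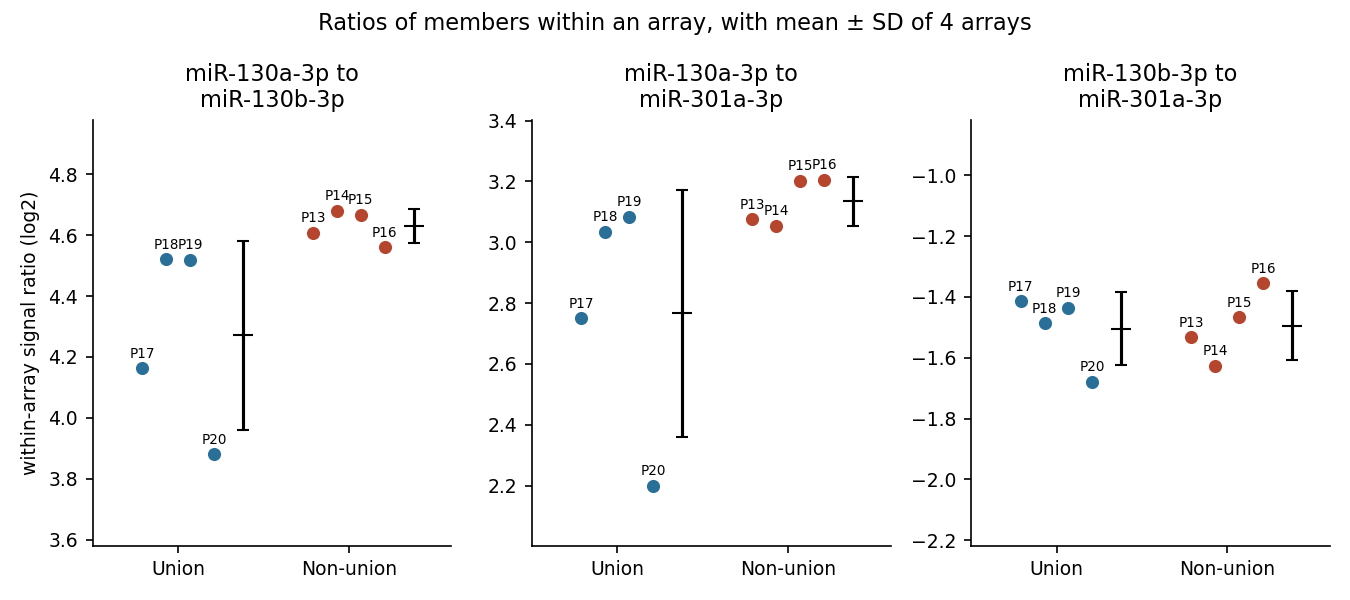
Within-array log2 ratio of merged signals for the 3 pairs of members, 1 panel per pair and 1 point per mouse (Union blue, Non-union red), with bars for the mean ± SD of 4 arrays. The groups stand apart for miR-130a-3p to miR-130b-3p, where P20 is lowest at 3.88, and overlap for both other pairs.

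MiR-721 shares the seed, but its values ran otherwise. Its merged signal was 125, 166, 67.1 and 65.0 units on P13 to P16. It was 263, 410.1, 54.4 and 86.5 units on P17 to P20. P17 and P18, the arrays on which the members were lowest after normalization, were the highest for miR-721, and the range of 7.54-fold in merged signal was wider than for any of the 3 members (1.43- to 2.50-fold). Non-union minus Union was −0.40 (SE 0.53, interval −1.60 to 0.79), with a limma p of 0.469, an adjusted p of 0.632 and an exact permutation p of 0.514. Its SD over the arrays was 0.84, and 87.4% of the tested miRs had a smaller one.

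The ratio of miR-721 to each of the 3 members had an SD of 1.17 to 1.20 over the arrays, and its group difference was −0.77, −0.41 and −0.40 against miR-130a-3p, miR-130b-3p and miR-301a-3p. The exact permutation p values were 0.429, 0.714 and 0.714, all 0.714 after adjustment over the 3 pairs, which were chosen after the values of miR-721 had been seen. In closeness to the members, miR-721 ranked 288 to 290 of 309. Seen from miR-721, which itself varied widely, miR-130a-3p, miR-130b-3p and miR-301a-3p ranked 164, 219 and 200 of 309. The SDs of these log2 differences were 1.086, 1.195 and 1.157, near the median of 1.06 over the other tested miRs. The 4 probes of miR-721 followed each other to within 0.12 over a range of 2.92. The closest miRs to it were miR-3091-5p, miR-680 and miR-3960 (SD of 0.13, 0.18 and 0.18). Without P19 and P20 the difference of miR-721 was −1.31 (SE 0.36, interval −2.17 to −0.46, limma p of 0.00822, adjusted p of 0.0298), opposite in sign to that of the members. These arrays were left out for their nearness to the other group, and the Union arrays kept, P17 and P18, were the highest for miR-721. Of 312 tested miRs, 58.0% then passed an unadjusted and 135 an adjusted p of 0.05 by limma. Without P18 the difference of miR-721 was 0.05.

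Among the 307 tested miRs outside the family, those whose values ran closest to each member were as follows. For miR-130a-3p they were miR-423-5p, miR-17-3p and miR-19b-3p, with an SD of the log2 difference of 0.07, 0.07 and 0.08 over the 8 arrays, against a median of 0.48 over all 309 other tested miRs. The latter pair belong to the miR-17 cluster, a set of miRs made from shared transcripts in dividing cells. For miR-130b-3p the closest outside the family were miR-19a-3p, miR-361-5p and miR-690 (0.11, 0.15 and 0.15, median 0.58), with miR-301a-3p between the first and the second of them. For miR-301a-3p, to which miR-130b-3p was closer still, they were miR-425-5p, miR-690 and miR-361-5p (0.13, 0.14 and 0.14, median 0.59). These are descriptions over 8 points that share slide, scaling and, for P20, 1 extreme array.

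MiRs known from vessels and from fat cells, the settings the family is known for, were set beside it. All 8 listed vessel miRs were tested, and 1 was higher in the Non-union group at an unadjusted limma p under 0.05, a share near the 13.9% of all tested miRs. This was miR-132-3p, which is known to act in activated endothelium, with a difference of 0.95 (SE 0.28, adjusted p of 0.288). None was lower at that threshold, and the lowest difference was −0.36 (SE 0.20) for miR-126-5p, an arm of the endothelial miR-126. The median over the list was 0.03, against 0.15 over all tested miRs. Of the 8 vessel miRs, 3 were highest on P20, namely the endothelial miR-126-3p and miR-126-5p, and miR-92a-3p. The same held for 74 of the 310 tested miRs.

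All 6 fat-cell miRs were tested and none passed the threshold by limma in either direction, also none after adjustment. By the methods' t-test 1 of the 6 passed it, as did 33 of all 310 tested miRs. The paper lists miR-27a-3p among its significantly different miRs. At most 2 of the 6 passed under the alternatives, namely under normexp (40 of all 310) and under the 75th percentile over the detected miRs (43 of all 310). Without normalization the list's median was 2.7e-05. The highest difference was 0.33 (SE 0.21) for miR-27b-3p, which is known to restrain fat-cell differentiation, and the lowest was −0.11 (SE 0.30) for miR-378-3p, which lies in the gene Ppargc1b. Of the 6 differences, 5 were above 0, with a median of 0.22 beside 0.15 over all tested miRs.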

How the data were processed

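The authors labelled total RNA with Cy3, scanned the arrays and extracted the spots with Agilent Feature Extraction 10.10.1.1 (version per the file headers). They deposited signal intensity values on a linear scale with detection calls, and a table of quantile normalized log2 values, whose medians and centring were not used here.

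The merged intensity of each miR was log2 transformed and quantile normalized over the 1079 murine miRs, and the 310 that every array detected were fitted with lmFit and eBayes (R 4.3.3, limma 3.58.1), two-sided, with Benjamini-Hochberg adjustment. Ratios, exact permutation tests and figures used Python 3.11.15, numpy 2.4.6, pandas 2.3.3, scipy 1.17.1 and matplotlib 3.10.9. The fit was tested on simulated data. Groups came from the labels. Replicates are separate mice.

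Named were the 4 members, their 4 partner arms, same-seed miRs, the highest and lowest difference of each list, and, outside the family, the 3 miRs with the smallest SD of their log2 difference to each member. The other markers, miR-223-3p among them, and the miRs closest to miR-721 were singled out after seeing their values. The vessel list was miR-126 (both arms), miR-210-3p, miR-132-3p, miR-221-3p, miR-222-3p, miR-92a-3p and miR-296-5p, and the fat-cell list miR-27a-3p, miR-27b-3p, miR-103-3p, miR-107-3p, miR-143-3p and miR-378-3p. Members and lists were chosen with earlier results of these data known.

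Alternatives were other normalizations, averaged processed spot signals (4429 values at or below 0 set to 0.1), normexp with an offset of 50 on the median spot signal because the files hold no mean one, other filters, a floor, the authors' table, the methods' t-test, and fits without arrays. Leaving out P19 and P20 together, and the ratios to miR-721, were added after seeing the data. Slide, scan and row could not be fitted as blocks. Outlier spots were left out of spot averages. Arrays have no depth, and their number limits the precision. Data from qrt-PCR and Western blots were not used here.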

Additional observations from a re-analysis of the deposited data

How the results depend on the processing

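With all arrays or any 1 array left out, no member passed an unadjusted limma p of 0.05 under any alternative, and the sign near 0 was not stable. Without normalization, which moved the median of all tested miRs from 0.15 to −0.10, miR-130b-3p stood at −0.21 and miR-301a-3p at −0.22. For miR-130b-3p, quantile normalization over the detected miRs only gave −0.029, averaged spot signals −0.014, normexp −0.023 and the authors' table −0.0054. With 1 array left out, the difference ran from 0.03 to 0.30 for miR-130a-3p, from −0.21 to 0.27 for miR-130b-3p, from −0.18 to 0.33 for miR-301a-3p and from −0.81 to 0.045 for miR-721. The 75th percentile over the detected miRs gave miR-130a-3p 0.37.

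Without P19 and P20, miR-130a-3p (0.48), miR-301a-3p (0.49) and miR-721 (−1.31) passed the threshold, and the ratios of miR-130a-3p to miR-130b-3p and of miR-130b-3p to miR-301a-3p differed by 0.29 (exact permutation p of 0.0667, the smallest 4 against 2 arrays allow) and −0.045. Calls over all miRs ran from 18 (without P17) to 115 (without P19), and were 122 without P14 and P19 and 181 without P19 and P20, against 43. They were 20 without P15, 28 without P16 and 21 without P18.

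With 1 array left out, the ratio of miR-130a-3p to miR-130b-3p differed by 0.23 to 0.44. The exact p was between 0.0857 and 0.143 without any 1 of the 4 Non-union arrays. It was 0.0286, the smallest then possible, without any 1 Union array. The groups stayed apart in all of these fits, so that these p values do not tell which group the separation depends on. The difference of this ratio was 0.21 under normexp (exact p of 0.0571) and 0.42 without P14 and P19 (exact p of 0.1, the smallest 3 against 3 allow). The ratio of miR-130a-3p to miR-301a-3p differed by 0.18 to 0.47 with 1 array left out (exact p of 0.0286 without P19) and by 0.50 without P14 and P19. That of miR-130b-3p to miR-301a-3p ran from −0.050 to 0.052 with 1 array left out and was 0.075 without P14 and P19 and −0.077 with averaged spot signals. The ratios of miR-721 to miR-130a-3p, miR-130b-3p and miR-301a-3p, with 1 array left out, ran from −1.30 to −0.20, from −0.88 to 0.24 and from −0.93 to 0.26. They were −1.55, −1.13 and −1.05 without P14 and P19, and −2.08, −1.79 and −1.83 without P19 and P20. The cause of these shifts was not tested. A block for slide or row, and miR-301b-3p without its undetected arrays, could not be run. No paired analysis was possible because the groups share no specimen numbers.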
